A study of Mus musculus with 8 samples.

Results

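The globin genes described here are the 7 members of the mouse alpha and beta globin clusters that make the chains of hemoglobin: the adult alpha genes Hba-a1 and Hba-a2, the adult beta genes Hbb-bs and Hbb-bt, the embryonic alpha-like gene Hba-x (zeta) and the embryonic beta-like genes Hbb-bh1 and Hbb-y (epsilon y). They were taken by name, as 7 of the 52784 genes in the count table, by a rule that uses no measured value. RNA was sequenced from 8 pooled libraries of mononuclear cells taken from pups 1 week old, with 1 library for each origin and treatment. Cells came from whole-body harvests, and the paper gives pools of unequal size, with the most pups in the uninjected pool. Pups were F1 hybrids with a BALB/c father and a CD11c-DTR mother of the C57BL/6 (B6) background, in which the CD11c (Itgax) promoter drives a diphtheria toxin receptor, so that diphtheria toxin (DT) removes dendritic cells (DC) of the dam for a time. Both origins were sorted from the same pups. Trafficked maternal cells have the H2K-b marker of the dam, and recipient cells, which are cells of the F1 pup itself, have H2K-b and H2K-d. H2K-b alone thus does not separate the origins, and whether pup cells entered the maternal libraries was not tested. In the DC control groups the dam was given saline on embryonic day 13, and in the DC-depleted group DT at 5 ng/g body weight. On embryonic day 14 each fetus received 5000000 bone marrow mononuclear cells into the liver by in-utero transplantation (IUT), with B6 donors for the maternal kind (mIUT) and BALB/c donors for the paternal kind (pIUT). The uninjected group had no IUT. The paper took uninjected controls from dams given DT and from dams given saline, but it does not state which dams gave the sequenced pool. Among the IUT groups, DC depletion was sequenced with pIUT alone. Donor cells of mIUT share H2K-b with maternal cells, and donor cells of pIUT have the H2K-d of the BALB/c parent, which the recipient cells also have.

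Hemoglobin is a tetramer of a pair of alpha-like and a pair of beta-like chains, each with a heme group. Mice make embryonic chains in primitive erythroblasts of the yolk sac and switch to adult chains when definitive erythropoiesis starts in the fetal liver, and they have no separate fetal globin gene of the kind that primates have. The fetal stage therefore has no gene of its own among the members, which were split into adult and embryonic. Maternal cells come from an adult animal, whereas the recipient cells were those of a newborn in which liver and spleen still make red cells. Globin mRNA persists in reticulocytes after the nucleus has been lost, so that a small number of such cells can carry much of it, and in these bulk libraries fewer red cells and less globin RNA per cell cannot be told apart.

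The alpha cluster lies on chromosome 11 and the beta cluster on chromosome 7 of GRCm39. Each of the 7 genes has 3 exons in its canonical transcript. Hba-a1 is annotated at chr11:32233186-32234504, Hba-a2 at chr11:32246168-32247320 and Hba-x at chr11:32226400-32228116, all on the plus strand. Hbb-bs is annotated at chr7:103475730-103482989, Hbb-bt at chr7:103461727-103465047, Hbb-bh1 at chr7:103490844-103492371 and Hbb-y at chr7:103500956-103502423, all on the minus strand. The copies within a cluster differ so little that the division of reads between them is an estimate. The coding sequences of Hba-a1 and Hba-a2 differed at 1 of 429 bases, C381T, and those of Hbb-bs and Hbb-bt at 1 of 444 bases, C417T, counted from the first base of the start codon. The longest run shared without a difference was 508 bases in the alpha transcripts and 430 bases in the beta transcripts. The 41 coding bases around each differing base are shown because nothing else in the coding sequence separates the copies, and the capital marks that base.
Hba-a1: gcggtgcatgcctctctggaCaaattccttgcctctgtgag
Hba-a2: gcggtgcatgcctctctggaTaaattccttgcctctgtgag
Hbb-bs: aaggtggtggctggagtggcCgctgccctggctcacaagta
Hbb-bt: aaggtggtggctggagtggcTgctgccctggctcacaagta
Embryonic genes are far enough from the adult ones for reads to be assigned to them: Hba-x shared 62% of aligned coding bases with Hba-a1, Hbb-bh1 shared 74.1% and Hbb-y 74.3% with Hbb-bs, and Hbb-bh1 shared 76.4% with Hbb-y, with no shared run over 26 bases among these pairs. Hbb-bs and Hbb-bt are the beta genes of the C57BL/6 haplotype. BALB/c mice carry another haplotype with the genes Hbb-b1 and Hbb-b2, which were not analysed here. The F1 recipient cells carry both haplotypes, and reads from the BALB/c alleles could be counted only on the C57BL/6 genes or be lost. The pairs were summed for the alpha-to-beta ratio, which does not recover lost reads. How many reads were lost, and whether this moved the ratio in recipient cells, was not tested.

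The 120 bases before the RefSeq transcription start of the members were searched for the classical elements of globin promoters. These were the CACCC box (CACCC, bound by Klf1), the CCAAT box (CCAAT) and the TATA box (searched as ATATAA), each on both strands. The sequences are of RefSeq (build GRCm38.p6) and were placed in GRCm39 by exact match, and 6 of the 7 members were matched. Except for Hbb-y, the windows lie within the annotated gene spans given above, which start further upstream than RefSeq does. Capitals mark matches on either strand, so that ATTGG is CCAAT read on the other strand.
Hba-a1, chr11:32233552-32233671, plus strand: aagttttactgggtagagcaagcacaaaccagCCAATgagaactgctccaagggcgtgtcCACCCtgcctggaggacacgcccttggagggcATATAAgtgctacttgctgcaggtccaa
Hba-a2, chr11:32246372-32246491, plus strand: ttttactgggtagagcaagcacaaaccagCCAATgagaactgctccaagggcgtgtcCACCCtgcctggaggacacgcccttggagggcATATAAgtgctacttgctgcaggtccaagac
Hbb-bs, chr7:103477136-103477255, minus strand: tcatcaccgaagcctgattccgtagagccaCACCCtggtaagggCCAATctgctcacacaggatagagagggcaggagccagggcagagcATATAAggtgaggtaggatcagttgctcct
Hbb-bt, chr7:103463131-103463250, minus strand: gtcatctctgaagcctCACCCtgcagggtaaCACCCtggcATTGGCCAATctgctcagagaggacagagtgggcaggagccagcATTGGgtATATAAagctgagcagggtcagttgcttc
Hba-x, chr11:32226480-32226599, plus strand: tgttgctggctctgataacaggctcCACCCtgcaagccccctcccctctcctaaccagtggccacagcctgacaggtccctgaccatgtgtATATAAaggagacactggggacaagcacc
Hbb-y, chr7:103502415-103502534, minus strand: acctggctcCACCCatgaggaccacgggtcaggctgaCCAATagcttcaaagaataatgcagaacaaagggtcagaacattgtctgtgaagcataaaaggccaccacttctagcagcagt
All 4 adult genes had the 3 elements in this window. Hba-x had no match to CCAAT and Hbb-y had none to ATATAA. Of 27025 promoter windows of the same length, 31.3% had a CACCC match, 22.1% a CCAAT match and 4.68% an ATATAA match, and 84 windows (0.311%) had all 3. The windows of Hba-a1 and Hba-a2 share an unbroken run of 117 bases and count as a single observation, whereas those of Hbb-bs and Hbb-bt were identical at 72.7% of aligned positions. Hbb-bt had 2 CACCC and 3 CCAAT matches, more than any of the other 5 windows shown. The letters GATAA, the core bound by Gata1, were found in the window of Hba-x alone, at 107 bases before the start, and in 10.7% of all windows. A match describes letters and is not a site known to be bound.

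Globin genes took between 0.0144% and 16.4% of all counts on genes, and the library with the smallest share was that of recipient cells after DC control mIUT. The 7 genes took 9.17% of counts in maternal cells of uninjected pups, 1.81% after DC control mIUT, 16.4% after DC control pIUT and 15.4% after DC-depleted pIUT. They took 12.4% in recipient uninjected cells, 0.0144% in recipient DC control mIUT (exact Clopper-Pearson 95% interval 0.0141 to 0.0148%), 4.51% in recipient DC control pIUT and 3.41% in recipient DC-depleted pIUT. The library totals lay between 38543457 and 47965130 counts, and the intervals of the other 7 shares were as narrow as 9.16 to 9.18% in maternal uninjected cells, so that counting error was small beside the differences between libraries. All intervals cover counting error only and treat reads as independent, which reads without molecular identifiers need not be. They can thus be too narrow, and they leave out uncertainty in how reads were divided between copies. The spread between pools of pups is unknown, as there was 1 library in each group, so each comparison is between 2 libraries and has no p value. In both origins the library of DC control mIUT had the smallest share, and the 3 IUT libraries of recipient cells had smaller shares than recipient uninjected cells.

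**Figure D1:**
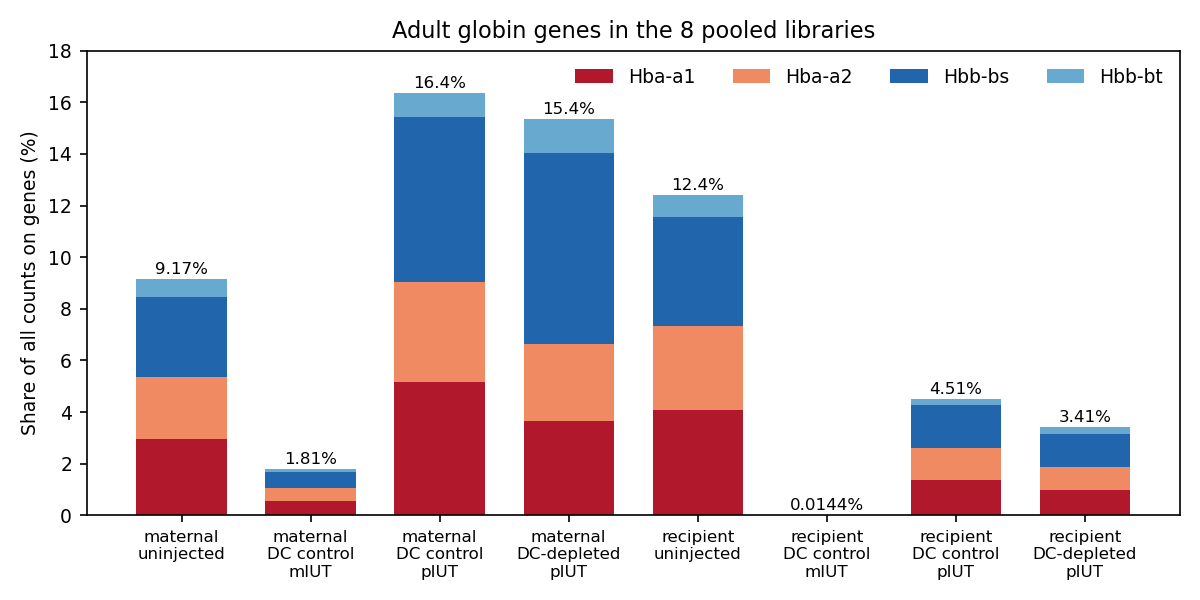
Share of all counts on genes (%) taken by the adult globin genes in each of the 8 pooled libraries, stacked by gene, with the summed share above each bar; each bar is 1 library and has no error bar. The maternal libraries of pIUT reach 16.4 and 15.4%, and recipient DC control mIUT does not rise visibly above 0.

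Hbb-bs, the major adult beta gene of this haplotype, was the most abundant gene of the whole library in 5 of the 8 libraries. Its counts in maternal cells were 1197074 uninjected, 273152 after DC control mIUT, 2523897 after DC control pIUT and 2862013 after DC-depleted pIUT. The recipient cells had 2040046 uninjected, 2240 after DC control mIUT, 671949 after DC control pIUT and 538208 after DC-depleted pIUT. It ranked second in recipient DC-depleted pIUT cells behind Mpo, a granule enzyme of myeloid precursors with 573302 counts, 14th in maternal DC control mIUT cells and 2338th in recipient DC control mIUT cells.

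Hbb-bt, the minor adult beta gene, had 266680, 55601, 369616 and 503070 counts in maternal uninjected, DC control mIUT, DC control pIUT and DC-depleted pIUT cells. The same order of treatments gave 400616, 603, 90224 and 100597 counts in recipient cells. Hbb-bt was the lowest of the adult genes in all 8 libraries.

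Hba-a1 had 1144189, 248292, 2034495 and 1412711 counts in maternal uninjected, DC control mIUT, DC control pIUT and DC-depleted pIUT cells, and 1966003, 1575, 544702 and 402402 in the corresponding recipient cells. Hba-a2 had 926692, 228214, 1530836 and 1141981 counts in the maternal libraries and 1546984, 1575, 496547 and 368925 in the recipient libraries, in the same order. By counts Hba-a1 was highest in maternal DC control pIUT and Hba-a2 in recipient uninjected cells, with maternal DC control pIUT next, whereas both beta genes were highest in maternal DC-depleted pIUT. In recipient DC control mIUT the alpha copies had equal counts, 1575 each, and how the reads were assigned to them was not tested.

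Depth-normalized levels, in counts per 1000000 (CPM) after scaling of the libraries by the trimmed mean of M values (TMM), changed the order of the highest libraries. The summed adult globins were at 90829, 20796, 127686 and 179274 CPM in maternal uninjected, DC control mIUT, DC control pIUT and DC-depleted pIUT cells. They were at 123107, 209, 39930 and 25724 CPM in the recipient cells. Maternal DC-depleted pIUT thus stood above maternal DC control pIUT in CPM but below it in the share of all counts, and the other 6 libraries kept their order on both scales. The TMM factors, which assume that most genes do not differ, ranged from 0.689 to 1.32.

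Counts of alpha per kilobase of transcript exceeded those of beta in every library except maternal DC-depleted pIUT. The alpha-to-beta ratio per kilobase in maternal cells was 1.37 uninjected, 1.41 after DC control mIUT, 1.18 after DC control pIUT and 0.732 after DC-depleted pIUT. In recipient cells it was 1.39 uninjected, 1.08 (1.03 to 1.14) after DC control mIUT, 1.32 after DC control pIUT and 1.17 after DC-depleted pIUT. The interval of the lowest ratio was 0.731 to 0.733, and no neighbours in the order of the 8 ratios had intervals of counting error that overlapped, although how far pools of pups differ is unknown. In both origins DC control pIUT had a lower ratio than uninjected cells, and DC-depleted pIUT a lower one still. A ratio within 1 library does not depend on the scaling between libraries, but it does on the lengths used, and the direction below 1 in maternal DC-depleted pIUT was the same with no length correction (0.759) and per kilobase of coding sequence (0.786).

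The division between copies varied little. Hba-a1 took 55.3, 52.1, 57.1 and 55.3% of adult alpha counts in maternal uninjected, DC control mIUT, DC control pIUT and DC-depleted pIUT cells, and 56.0, 50, 52.3 and 52.2% in the recipient cells. Hbb-bs took 81.8, 83.1, 87.2 and 85.1% of adult beta counts in the maternal cells and 83.6, 78.8, 88.2 and 84.3% in the recipient cells. The ranges of maternal and of recipient libraries overlapped for both pairs, although the recipient cells also carry the BALB/c haplotype. The transcripts of the copies differ at 92 of 738 aligned positions for alpha and 100 of 706 for beta, including positions where only 1 of the transcripts extends, and reads outside these positions fit both copies.

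**Figure D2:**
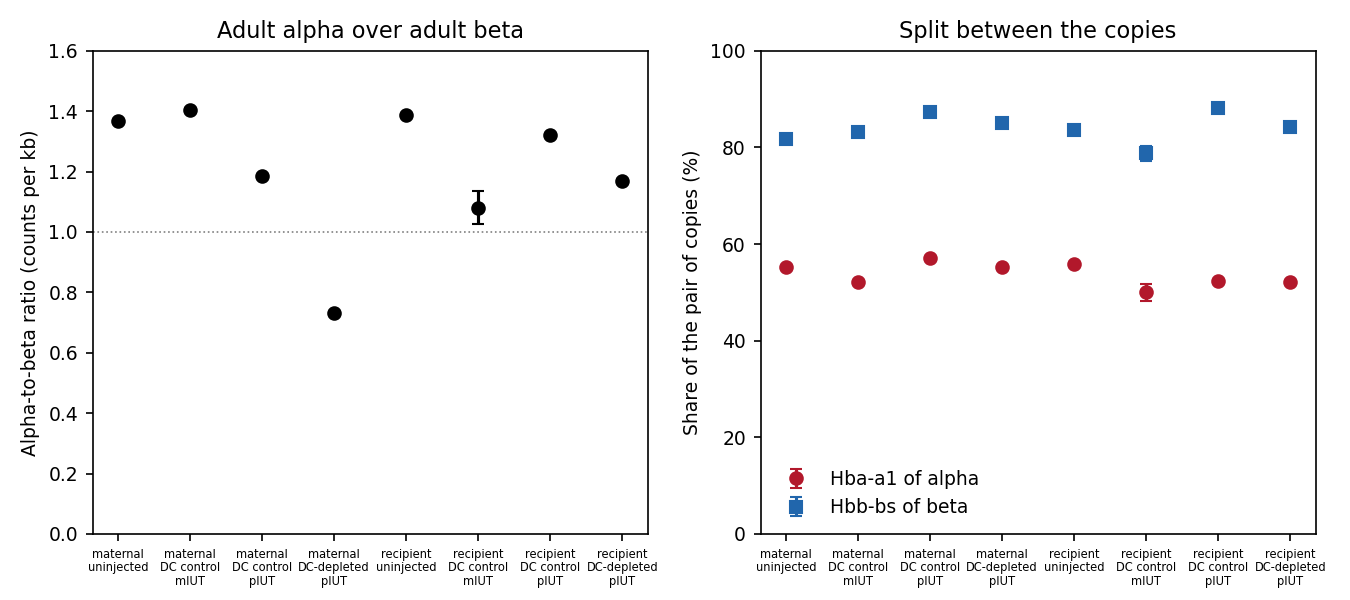
Left, adult alpha over adult beta counts per kilobase of transcript; right, Hba-a1 as a share of adult alpha counts (%) and Hbb-bs as a share of adult beta counts (%), for each of the 8 libraries. Points are single libraries and bars are exact 95% intervals of counting error, most of them smaller than the point; the ratio of 0.732 in maternal DC-depleted pIUT is the only one below the dotted line at 1.

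Embryonic globin RNA was near the limit of detection in most libraries and reached its highest counts in maternal cells after DC control pIUT. A gene at 3 counts or fewer is treated here as not detectable, which at these depths is 0.0547 to 0.105 CPM. Hba-x, whose zeta chain pairs with embryonic beta-like chains, had 1598 counts in maternal DC control pIUT cells, 32 in recipient DC-depleted pIUT cells, 25 in maternal DC-depleted pIUT cells and 5 in recipient DC control mIUT cells, with 0 in the other 4 libraries. Hbb-y had 438 counts in maternal DC control pIUT cells, 46 in maternal uninjected cells and 1 in recipient DC control mIUT cells, and 0 in the other 5 libraries. Hbb-bh1, the other embryonic beta-like gene, had 38 counts in maternal uninjected cells and 0 in the other 7 libraries. No library had counts of all 3 embryonic genes, and Hba-x and Hbb-y were both above the limit in maternal DC control pIUT alone.

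Beside the adult counts these are small amounts. Embryonic genes made up 23.8 of every 1000000 globin counts (18.96 to 29.42) in maternal uninjected cells, 315 (302 to 329) after DC control pIUT and 4.22 (2.73 to 6.23) after DC-depleted pIUT, and 22.7 (15.5 to 32.0) in recipient DC-depleted pIUT cells. Recipient DC control mIUT cells had 1000 on this scale, but from 6 embryonic counts of 5999, with an interval of 367 to 2176. The intervals of maternal uninjected and recipient DC-depleted pIUT cells overlapped, and those of the other libraries with an embryonic count did not. Put as a ratio of counts, there were 42079 adult counts for each embryonic count in maternal uninjected cells, 3172 after DC control pIUT and 236791 after DC-depleted pIUT, and 999 in recipient DC control mIUT and 44067 in recipient DC-depleted pIUT cells. Where no embryonic count was found, 3 counts were taken as the limit, and the ratio was at least 268420 in maternal DC control mIUT, at least 1984550 in recipient uninjected and at least 601141 in recipient DC control pIUT cells. The recipient uninjected library, of newborn cells with 5953649 globin counts, thus had no embryonic globin RNA detectable at this depth.

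**Figure D3:**
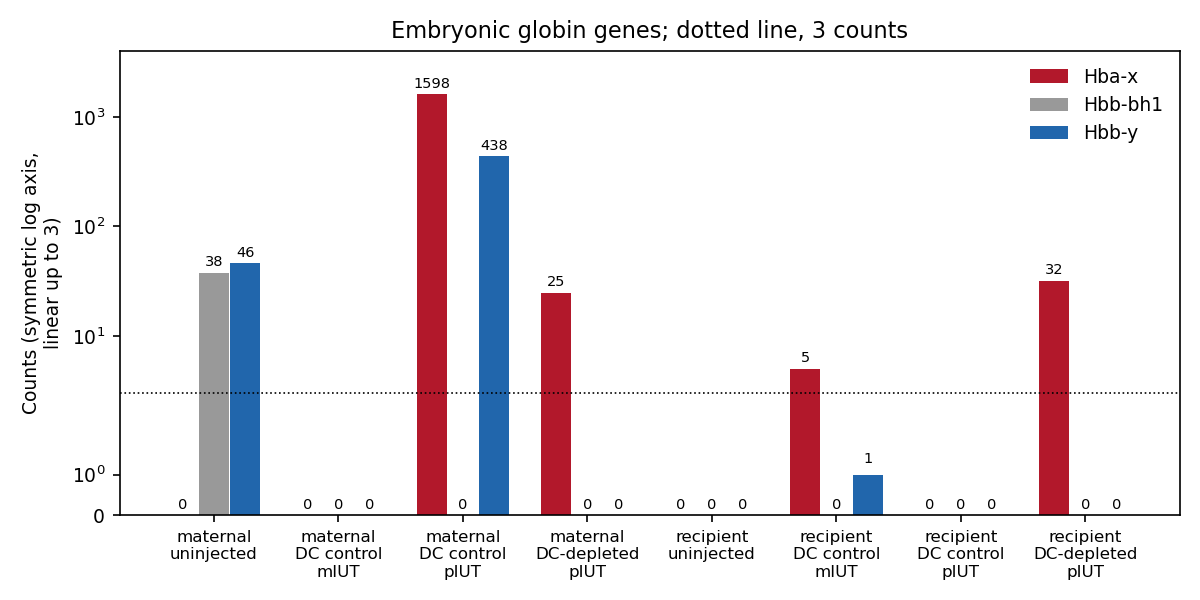
Counts of the embryonic globin genes Hba-x, Hbb-bh1 and Hbb-y in each library on a symmetric log axis that is linear up to 3, with the count above each bar and a dotted line at the limit of 3 counts. Maternal DC control pIUT has 1598 counts of Hba-x and 438 of Hbb-y, and 3 libraries have no embryonic count.

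The first comparisons set each IUT group against uninjected pups in trafficked maternal cells. The uninjected library had fewer counts on mitochondrial genes, 0.330% against 1.51, 1.77 and 1.03% after DC control mIUT, DC control pIUT and DC-depleted pIUT. Genes with at least 10 counts numbered 13068 against 10016, 13009 and 13266 in the same order. How these differences bear on the globin values was not tested. After DC control mIUT all 4 adult genes were lower than in uninjected cells, by 4.04-fold (Hba-a2) to 4.77-fold (Hbb-bt), and their sum was 4.37-fold lower. Hbb-bh1 had 0 counts against 38 and Hbb-y 0 against 46, which makes them at least 12.6-fold and at least 15.3-fold lower. All 4 adult genes were at least 2-fold lower, where 44.0% of all genes compared were. A gene was compared when it had over 3 counts in either library, so that an embryonic gene at 0 in one library entered, here and below, only through the other, which fixed its direction. The median log2 difference of the adult genes was -2.16, beside -0.60 for all genes.

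After DC control pIUT the adult genes of maternal cells were within 2-fold of uninjected cells, except that Hbb-bs reached a log2 difference of 1.04 when scaled by library size. The log2 differences were 0.70 for Hbb-bs, 0.45 for Hba-a1, 0.35 for Hba-a2 and 0.09 for Hbb-bt, and the sum was 1.41-fold higher, or 1.78-fold by share of counts. Hba-x was at least 410-fold higher (1598 counts against 0), Hbb-y was 7.31-fold higher and Hbb-bh1 at least 16.5-fold lower. Thus 2 of 7 members were at least 2-fold higher and 1 was lower, where 33.3% of all genes were higher and 33.7% lower.

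After DC-depleted pIUT the beta genes of maternal cells were higher than in uninjected cells and the alpha genes stayed within 2-fold. Hbb-bs was 2.82-fold and Hbb-bt 2.22-fold higher, whereas Hba-a1 and Hba-a2 were 1.46-fold and 1.45-fold higher. Summed by chain, beta was 2.71-fold and alpha 1.45-fold higher. The call of Hbb-bt depends on the scaling, as its log2 difference ranged from 0.92 to 1.20 over those tried. Hba-x was at least 9.82-fold higher on 25 counts against 0, and Hbb-bh1 and Hbb-y were at least 10.7-fold and at least 13.01-fold lower. That made 3 of 7 members higher, where 35.3% of all genes were, and 2 lower, where 34.7% were.

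In recipient cells each of the 3 IUT libraries had less adult globin RNA than the uninjected library. The uninjected library that these comparisons share also had more counts on mitochondrial genes, 3.26% against 0.184, 0.166 and 0.109% after DC control mIUT, DC control pIUT and DC-depleted pIUT, and fewer genes with at least 10 counts, 9125 against 13278, 14670 and 16231. The part of these differences in the globin values was not tested. After DC control mIUT the adult genes were lower by 394-fold (Hbb-bt) to 740-fold (Hba-a1), and their sum was 589-fold lower. Hba-x was at least 2.81-fold higher, on 5 counts against 0. This gave 4 of 5 members at least 2-fold lower, where 24.6% of all genes were, and 1 higher, where 53.5% were. The median log2 difference was -9.13 for the adult genes and 1.26 for all genes. With library size as the scaling the differences of the adult genes reached -10.08 and that of Hba-x was 0.94.

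After DC control pIUT the adult genes of recipient cells were 2.84-fold (Hbb-bs) to 4.15-fold (Hbb-bt) lower than uninjected, and their sum was 3.08-fold lower. All 4 members that could be compared were at least 2-fold lower, against 20.2% of all genes, whose median log2 difference was 1.13. After DC-depleted pIUT they were 4.30-fold (Hbb-bs) to 5.54-fold (Hba-a1) lower, and their sum was 4.79-fold lower. Hba-x was at least 9.41-fold higher on 32 counts against 0. Of 5 members 4 were lower, against 18.2% of all genes, and 1 was higher, against 53.1%, with a median of 1.23 over all genes. In both libraries the direction of the adult genes was opposite to the median of all genes. The 3 comparisons of an origin share its uninjected library.

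DC depletion was examined by setting DC-depleted pIUT against DC control pIUT. In maternal cells Hbb-bt was 2.08-fold and Hbb-bs 1.74-fold higher after depletion, and Hba-a1 (log2 0.09) and Hba-a2 (log2 0.19) were close to equal. Both alpha genes changed sign with the scaling: by library size they were at -0.49 and -0.39, while Hbb-bs and Hbb-bt stayed positive at 0.22 and 0.48. Summed beta was 1.78-fold higher and summed alpha 1.098-fold higher, or 1.19-fold higher and 1.36-fold lower by share of counts. Hba-x was 41.6-fold lower, at 25 counts against 1598, and Hbb-y at least 95.3-fold lower, at 0 against 438. Of 6 members 1 was at least 2-fold higher, against 38.6% of all genes, and 2 were lower, against 36.4%. Hbb-bt was past 2-fold under TMM scaling alone and not under any of the 4 other scalings tried.

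In recipient cells the adult genes were within 2-fold between DC-depleted and DC control pIUT. Hba-a1 was 1.64-fold, Hba-a2 1.63-fold and Hbb-bs 1.52-fold lower after depletion, and Hbb-bt was at a log2 difference of -0.12 that became 0.11 under another scaling. Hba-x had 32 counts against 0 and was at least 8.79-fold higher, the only member of 5 past 2-fold, where 24.1% of all genes were higher.

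Recipient cells were then compared with maternal cells of the same pups. In uninjected pups the adult genes were 1.21-fold (Hbb-bt) to 1.38-fold (Hba-a1) higher in recipient cells, all within 2-fold, and the sum was 1.36-fold higher beside a median log2 difference of -0.78 over all genes. The embryonic genes Hbb-bh1 and Hbb-y were at least 15.7-fold and at least 19.1-fold lower in recipient than in maternal cells, which makes 2 of 6 members lower, against 47.8% of all genes. After DC control mIUT the adult genes of recipient cells were 68.3-fold (Hbb-bt) to 117-fold (Hba-a1) lower, 4 of 5 members, against 20.5% of all genes. Hba-x was at least 2.25-fold higher on 5 counts, against 45.5% of all genes higher, and was within 2-fold by library size (log2 0.84).

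After DC control pIUT all 4 adult genes were at least 2-fold lower in recipient than in maternal cells, against 26.3% of all genes. They were 2.75-fold (Hba-a2) to 3.66-fold (Hbb-bt) lower. Of the embryonic genes, which entered through the maternal library alone, Hba-x was at least 476-fold and Hbb-y at least 130-fold lower. After DC-depleted pIUT the beta genes were further apart than the alpha genes: Hbb-bs was 8.83-fold and Hbb-bt 8.30-fold lower in recipient cells, Hba-a1 5.83-fold and Hba-a2 5.14-fold lower. Hba-x was near equal at 32 and 25 counts, with a log2 difference of -0.37 that ranged from -0.50 to 0.25 with the scaling. Of 5 members 4 were lower, against 22.6% of all genes. Recipient cells thus had more adult globin RNA than maternal cells in uninjected pups and less in the 3 IUT groups, on the scale of CPM and by share of counts.

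**Figure D4:**
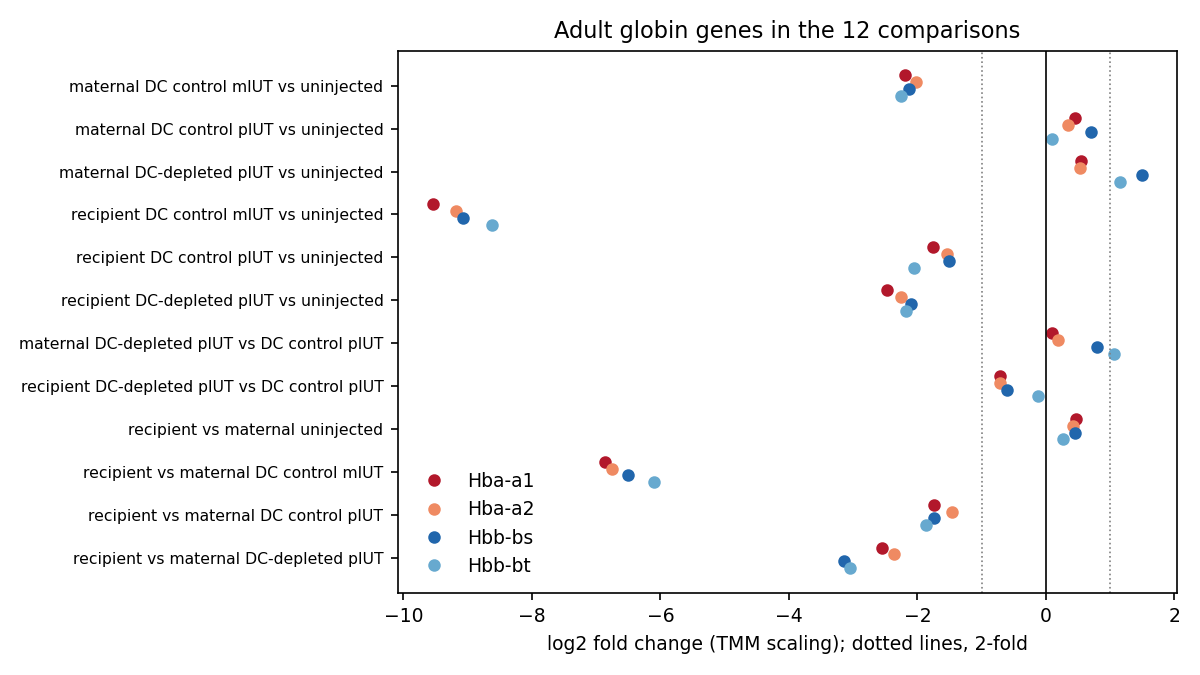
log2 fold change of the 4 adult globin genes (TMM scaling) in each of the 12 comparisons, 1 library against 1, with dotted lines at a 2-fold difference. All 4 genes lie left of 0 for each recipient IUT library against uninjected, and beta lies above alpha in both comparisons of maternal DC-depleted pIUT with another maternal library.

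Other genes of the globin family were low. Of the theta-like alpha genes, Hbq1b had 343, 200, 1656 and 763 counts in maternal uninjected, DC control mIUT, DC control pIUT and DC-depleted pIUT cells and 779, 0, 36 and 111 in the recipient cells, and Hbq1a had at most 170 counts, in maternal DC control pIUT. Myoglobin (Mb), which stores oxygen in muscle, and cytoglobin (Cygb), a globin of fibroblasts, were also highest in maternal DC control pIUT, with 427 and 294 counts, and had 31 and 5 counts in maternal DC-depleted pIUT, 34 and 30 in recipient DC-depleted pIUT and 0 in the other 5 libraries. The library with the most Hba-x and Hbb-y RNA was thus also the one with the most RNA of globins outside the red cell lineage. Whether the same cells carry them was not tested. Ngb, the neuroglobin gene, had 4 counts in recipient DC control pIUT, and 0 in the others.

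Heme synthesis supplies the group that each globin chain binds, and the summed level of its enzymes put the 8 libraries in the same order as the adult globins, with the exception of recipient DC control pIUT and DC-depleted pIUT, which were exchanged. The summed level of the 8 enzymes was 1875, 605, 5758 and 7535 CPM in maternal uninjected, DC control mIUT, DC control pIUT and DC-depleted pIUT cells, and 3395, 236, 910 and 1110 CPM in recipient cells. Alas2, the erythroid form of the first enzyme of the pathway, had 14556, 5857, 71098 and 20294 counts in the maternal and 20700, 15, 21646 and 16635 in the recipient libraries. Its log2 CPM had a Pearson r of 0.97 with that of the summed adult globins over the 8 libraries, and of 0.74 without recipient DC control mIUT. Alad, the second enzyme, had an r of 0.94 and 0.91. These points share library and depth with the globins, and the r values are descriptions. In recipient DC control mIUT all 8 enzymes were at least 2-fold lower than uninjected, against 24.6% of all genes, with a median log2 difference of -3.88 beside 1.26 for all genes. In recipient DC control pIUT and DC-depleted pIUT 7 of 8 were lower in each, against 20.2% and 18.2% of all genes (medians -2.51 and -1.80). In maternal DC control mIUT 7 of 8 were lower, against 44.0% of all genes (median -1.56), and in maternal DC control pIUT and DC-depleted pIUT 7 of 8 were higher in each, against 33.3% and 35.3% (medians 1.35 and 1.91).

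Red cell membrane and marker genes separated 2 libraries that had similar amounts of globin RNA. The summed level of the 16 erythroid genes was 1822, 322, 5496 and 6690 CPM in maternal uninjected, DC control mIUT, DC control pIUT and DC-depleted pIUT cells, and 3683, 51.3, 151 and 630 CPM in recipient cells. In maternal DC-depleted against DC control pIUT, 8 of the 16 genes were at least 2-fold lower and 3 higher, against 36.4% and 38.6% of all genes. Their median log2 difference there was -0.86, although their sum was higher. Recipient DC control pIUT had 1.55-fold more adult globin RNA than recipient DC-depleted pIUT but 151 against 630 CPM of the erythroid list, and 11 against 16 of its genes above 3 counts. Car2, a carbonic anhydrase, had the highest mean level of the list (27681, 3245, 112387 and 89194 counts maternal, 77478, 131, 1557 and 12976 recipient). Slc4a1, the band 3 anion exchanger, had 243 counts in recipient DC control pIUT and 2038 in recipient DC-depleted pIUT, and the blood group gene Rhd 16 and 2786. Between these libraries 14 of the 16 genes were at least 2-fold higher after depletion, against 24.1% of all genes, with a median log2 difference of 4.46 against -0.65 for the adult globins and 0.12 for all genes. Markers of other cell types differed between the same libraries: all 5 hepatocyte genes (median log2 difference 8.57) and all 5 megakaryocyte and platelet genes (median 2.38) were at least 2-fold higher after depletion, and the T cell genes had a median of -2.31. Their part in the erythroid values was not tested. Alas2, in contrast, was within 2-fold, at 21646 and 16635 counts. In recipient DC control mIUT 6 of the 16 genes were above 3 counts and the other 10 were at 0, Slc4a1 among them. The labels call all 8 libraries mononuclear cells, and the defining red cell gene Slc4a1 was detected in 7 of them.

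**Figure D5:**
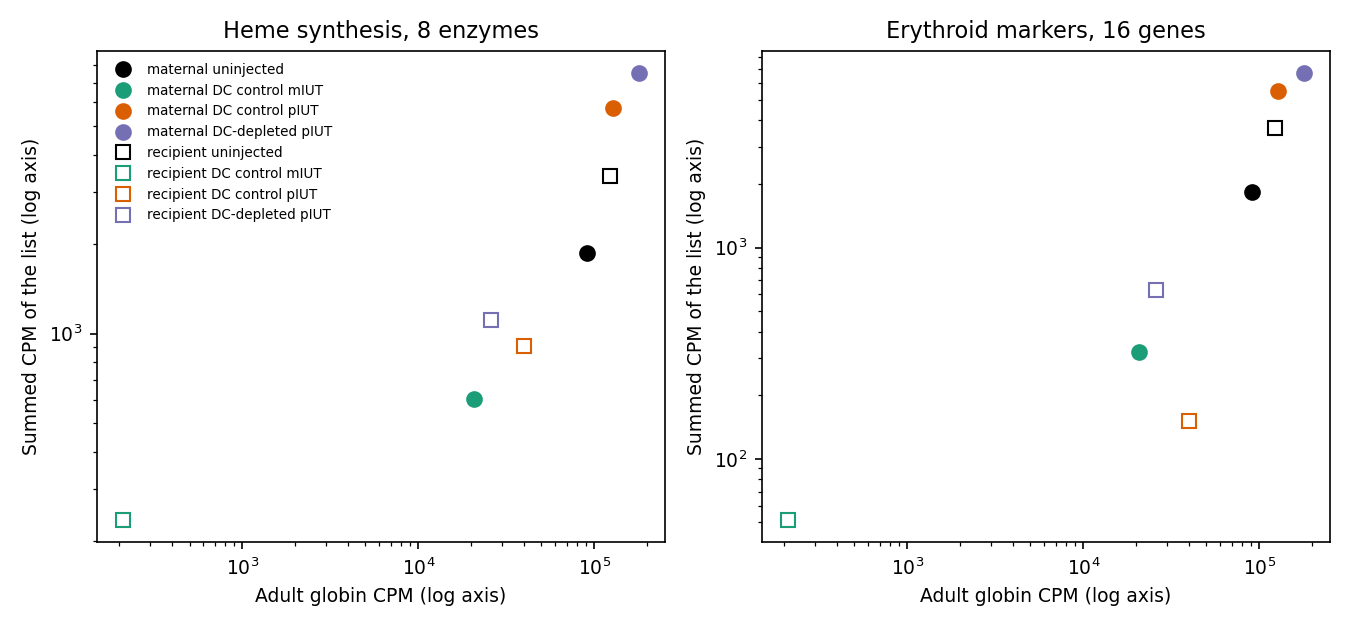
Summed CPM of the heme synthesis enzymes (left) and of the erythroid marker genes (right) against the summed adult globin CPM, on log axes, 1 point for each library (filled circles maternal, open squares recipient, colours the treatment). Recipient DC control pIUT lies low on the right, at 151 CPM of erythroid genes for 39930 CPM of globin, and recipient DC control mIUT is lowest in both.

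Of the transcription factors that act on the globin clusters, Klf1, which binds the CACCC box of the adult beta promoter, had 4673, 0, 16941 and 18234 counts in maternal uninjected, DC control mIUT, DC control pIUT and DC-depleted pIUT cells and 14310, 21, 10 and 2270 in recipient cells. Maternal DC control mIUT and recipient DC control pIUT thus had 805259 and 1803422 globin counts with 0 and 10 counts of Klf1. Gata1 had 1636, 1, 5932 and 13302 counts in the maternal and 45, 63, 324 and 2010 in the recipient libraries, with 45 in the uninjected recipient library of high globin. Nfe2, the factor of the globin locus control region that other blood lineages also make, ran the other way, with 19435 and 20875 counts in maternal and recipient DC control mIUT, the libraries lowest in globin, and at most 9163 elsewhere (r -0.79 with the adult globins, -0.54 without recipient DC control mIUT).

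Repressors of embryonic globin genes differed among themselves in their levels across the libraries. Bcl11a had 1237, 1102, 1366 and 1088 counts in the maternal and 535, 193, 210 and 814 in the recipient libraries. Zbtb7a had 1986, 1956, 1451 and 242 counts in the maternal and 3081, 1177, 622 and 1060 in the recipient libraries. Sox6, which silences Hbb-y, had 48, 271, 1942 and 27 counts in the maternal and 1915, 4, 0 and 70 in the recipient libraries. It was highest in maternal DC control pIUT, the library highest in Hbb-y, and in recipient uninjected cells, which had none. Nr2c1 and Nr2c2, orphan nuclear receptors that bind embryonic globin promoters, were also highest in maternal DC control pIUT, at 935 and 4476 counts. Myb, of progenitor cells, had 17, 0, 0 and 721 counts in the maternal and 3326, 727, 4512 and 4941 in the recipient libraries. It was at 0 both in maternal DC control mIUT, with no embryonic globin count, and in maternal DC control pIUT, with the most.

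The genes whose log2 CPM was most like that of the summed adult globins over the 8 libraries, among 8438 genes outside the lists with a mean of at least 10 CPM, included Akr7a5 (r 0.96), Mrpl38 (0.94), Selenow (0.94) and Gpr89 (0.94). Without recipient DC control mIUT, which lies far from the rest, r was between 0.63 and 0.85 for these 4. For the summed embryonic beta-like genes Hbb-bh1 and Hbb-y the most alike were Mfap4 (0.97), Fnip2 (0.96), Ppp1r14c (0.95), Stoml1 (0.92) and Scg5 (0.91), over libraries of which 6 had at most 1 count of these globins. Chosen as the highest of so many, these r values are descriptions of 8 libraries.

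Markers of other cell types also differed between the libraries. The genes of highest mean level in these lists were S100a8, Ltf and Camp for granulocytes, Cd79a, Cd79b and Ms4a1 for B cells, Cd3d, Cd3g and Cd3e for T cells, Klrb1c, Ncr1 and Klre1 for NK cells, Ly6c2, Csf1r and Adgre1 for monocytes and macrophages, Pf4, Itga2b and Gp9 for megakaryocytes and platelets and Afp, Apoa1 and Ttr for hepatocytes. The 6 granulocyte genes summed to 65370 and 113131 CPM in maternal and recipient DC control mIUT, the libraries lowest in globin of their origin, and to 889 to 22440 CPM in the other 6. The 5 B cell genes summed to 6621 CPM in maternal uninjected and 1202 CPM in recipient uninjected cells and to 30.3 to 307 CPM in the other 6. Among markers of the liver, where newborn red cells are made, hepatocyte genes summed to 10177 CPM in recipient uninjected and 4239 CPM in maternal DC control mIUT, and to 4.98 to 553 CPM in the other 6, so that the recipient library with most globin also had most hepatocyte RNA. The T cell genes ranged from 74.1 to 1656 CPM, the NK cell genes from 0 to 256 CPM, the monocyte and macrophage genes from 118 to 1922 CPM and the megakaryocyte and platelet genes from 0 to 371 CPM. The part of these differences in the globin values was not tested.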

How the data were processed

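Total RNA of sorted, pooled cells was sequenced in 8 libraries. The authors deposited estimated counts per gene, not normalized, on GRCm39 with GENCODE annotation. Their fractional values are those of salmon in the nf-core pipeline, while the study's methods name featureCounts. All 8 columns belong to a sample, and 0 were left out. The deposited clonotype tables were not used here. Estimated counts were rounded. TMM factors were computed with edgeR 4.0.16 in R 4.3.3 over the 25066 genes with a count, and log2 fold changes with edgeR's exact test at the study's dispersion of 0.4. No p values were taken from it. The fold calculation was tested on simulated data. Fold changes against 3 counts or fewer are bounds from 3 counts. A call is a difference of at least 2-fold. Genes, positions and sequences were read from GENCODE release 39 (97.99% of identifiers matched). Intervals are exact (Clopper-Pearson) at 95%.

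The members and lists were chosen with earlier results of these data known. Named were the 7 members, other globin genes with over 3 counts in any library, the 3 genes of highest mean CPM in each other list, the embryonic repressors, and the 5 genes most like each globin sum. Lists of cell type markers are given as sums. Mpo was named after its values were seen. Some genes that the rule names are not reported here. Ahsp, the alpha chain chaperone, was not analysed here. Alternatives were scalings (DESeq2 1.42.0 size factors, library size, TMM without globins or on genes with at least 10 counts), totals without mitochondrial genes, other lengths, unrounded counts, a 4-fold threshold and, added later, an exact sign-flip test of the origins paired by treatment. Tables and intervals were made in Python 3.11.15 with scipy 1.17.1, numpy 2.4.6 and pandas 2.3.3, and plots with matplotlib 3.10.9.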

Additional observations from a re-analysis of the deposited data

Results flagged for a closer look

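Maternal and recipient cells moved in opposite directions by at least 2-fold in 3 cases, each a comparison of 1 library with 1 in each origin, and the difference between origins was not tested. In DC-depleted pIUT against uninjected cells, Hbb-bs was at a log2 difference of 1.49 in maternal and -2.10 in recipient cells. In the same comparison Hbb-bt was at 1.15 in maternal cells, where it ranged down to 0.92 with the scaling, and at -2.17 in recipient cells. In DC-depleted against DC control pIUT, Hba-x was at -5.38 in maternal cells, from 25 counts against 1598, and at a bound of 3.14 in recipient cells, from 32 counts against 0.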

How the results depend on the processing

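Values rest on 1 library in each group, so no library could be left out of a comparison between groups, and counting intervals leave out the spread between pools. Pairing the origins by treatment, an alternative chosen after seeing the data, gave a mean log2 difference of -2.67 (SD 2.97, n = 4 pairs) between recipient and maternal cells in summed adult globins, lower in recipient cells in 3 of 4 pairs, with a two-sided exact sign-flip p of 0.25, where 4 pairs cannot go below 0.125. Without mitochondrial genes in the total, the globin share moved beyond counting error in 6 libraries, to 9.20, 1.83, 16.7 and 15.5% in maternal uninjected, DC control mIUT, DC control pIUT and DC-depleted pIUT cells and to 12.8 and 4.51% in recipient uninjected and DC control pIUT cells. With no length correction the alpha-to-beta ratio moved to 1.41, 1.45, 1.23 and 0.759 in the maternal libraries in that order, and to 1.44, 1.37 and 1.21 in recipient uninjected, DC control pIUT and DC-depleted pIUT cells. Per kilobase of coding sequence, an alternative chosen after seeing the data, it moved to 1.46, 1.5001, 1.28 and 0.786 in the maternal and to 1.49, 1.15, 1.41 and 1.25 in the recipient libraries, the latter in the order uninjected, DC control mIUT, DC control pIUT, DC-depleted pIUT. In both, maternal DC-depleted pIUT alone was below 1. Per kilobase of transcript the embryonic genes were 284 of every 1000000 in maternal DC control pIUT cells. Leaving estimated counts unrounded moved none of 24 values.

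Of the counts of members past 2-fold, that of members higher in maternal DC-depleted against DC control pIUT was 0 in place of 1 with DESeq2 size factors, by library size, without globin genes in the totals, with TMM on genes of at least 10 counts and at the 4-fold threshold. By library size and at the 4-fold threshold, the count of members higher was 0 in place of 1 in recipient DC control mIUT against uninjected and in recipient against maternal DC control mIUT. At the 4-fold threshold, 1 member was higher in maternal DC-depleted pIUT against uninjected, 1 was lower in recipient DC control pIUT against uninjected and 2 were lower in recipient against maternal DC control pIUT. The cause was not tested. The other counts stayed within 1.5 times the main one. Without recipient DC control mIUT, another alternative chosen after seeing the data, the r of Alas2 with the adult globins was 0.74.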
